A study of Mus musculus with 18 samples.

Results

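The TNF receptor family was examined in regulatory T cells (Tregs), the CD4+ T cells that suppress other immune cells under the transcription factor Foxp3, through 8 genes chosen by name: Tnfrsf18, Tnfrsf4, Tnfrsf9, Tnfrsf1a, Tnfrsf1b, Tnfrsf25, Tnfrsf14 and Cd27. These are 8 of 35865 genes listed under a single name in the RNA table. All 8 passed the filter on low values, as did 15240 genes in all. The RNA-seq compared YFP+ cells that were sorted by FACS from CD4+ T cells of mouse spleens, with 2 WT and 2 Chd8-/- libraries. Chd8 encodes a chromatin remodeler, and the question was how gene expression of Tregs differed without it.

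Chd8-/- mice carried homozygous floxed Chd8 alleles and Foxp3 YFP-Cre, a fusion of YFP and Cre knocked into the X-linked Foxp3 locus, so that recombination was limited to cells that express Foxp3. For the WT libraries the sample labels name floxed Chd8 alleles together with heterozygous Foxp3 YFP-Cre, whereas the methods describe WT littermates without floxed alleles; the titles of the samples separate the genotypes and were used here. The labels give a Poly IC injection for all libraries of both genotypes, and the methods mention no injection. The mice were littermates a few weeks old, and the study reports a fatal inflammation of Chd8-/- mice at that age. Floxed females heterozygous for Foxp3 YFP-Cre showed no disease in the study. The Tregs of each genotype may thus have come from animals in a different state, and the state of the sequenced mice is not described. The figure legends of the study name 1 male and 1 female mouse per genotype. In these libraries, however, Xist was listed between 500.2 and 843.3 TPM in all 4, and the Y-linked genes Ddx3y, Eif2s3y, Kdm5d and Uty were listed at 0 in all 4.

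Receptors of this family are activated by trimeric ligands of the TNF family. They recruit TRAF adaptor proteins, or through a death domain the adaptor TRADD, and lead to NF-kappaB. GITR (Tnfrsf18), OX40 (Tnfrsf4), 4-1BB (Tnfrsf9) and TNFR2 (Tnfrsf1b) are costimulatory receptors that Tregs are known to carry at high levels, and signals through them can expand Tregs or alter their suppressive function. CD27 also costimulates T cells and is lost from many T cells upon differentiation, DR3 (Tnfrsf25) is the receptor of TL1A, and HVEM (Tnfrsf14) binds both LIGHT and the inhibitory receptor BTLA. TNFR1 (Tnfrsf1a) is the TNF receptor with a death domain found on many cell types.

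In short, the transcripts of OX40, GITR and 4-1BB were listed higher in both Chd8-/- libraries than in both WT libraries, by 1.76-fold, 1.66-fold and 1.66-fold on TPM + 1. The transcripts of TNFR1 and CD27 were listed lower in both Chd8-/- libraries. The libraries of the genotypes overlapped for TNFR2, DR3 and HVEM. The gene of the OX40 ligand, Tnfsf4, had a larger difference than any of the 8 receptors. Of the 15240 genes tested, receptors included, 0 reached an adjusted p-value under 0.05, and the receptors are given with their intervals.

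Of the receptor genes, Tnfrsf1a and Cd27 lie on chromosome 6 and all others on chromosome 4 (GRCm38). Tnfrsf4 (156013595 to 156016613) and Tnfrsf18 (156026322 to 156028894) are neighbors on the plus strand of chromosome 4 with 9.71 kb between them. Because these genes, together with Tnfrsf9 (chromosome 4, 150920155 to 150946104, plus strand), were higher in Chd8-/- Tregs, sequence before their annotated starts is shown, 5' to 3', plus strand, from RefSeq on GRCm38.p6. For Tnfrsf18 and the upstream of both annotated starts of Tnfrsf9 these are 250 bases. The window of the downstream start of Tnfrsf9 lies in an exon of another transcript of the gene and is shown as 30 bases around a match. The window of Tnfrsf4 lies in exons of Sdf4 and of a longer Tnfrsf4 transcript and is not shown. Capitals mark matches to an NF-kappaB motif.
Tnfrsf18, chr4:156026072-156026321: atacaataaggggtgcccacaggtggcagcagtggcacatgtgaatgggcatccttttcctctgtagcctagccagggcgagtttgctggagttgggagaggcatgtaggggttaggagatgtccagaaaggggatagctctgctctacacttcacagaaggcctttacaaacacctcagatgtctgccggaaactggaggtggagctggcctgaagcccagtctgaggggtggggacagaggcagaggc
Tnfrsf9, upstream start, chr4:150919905-150920154: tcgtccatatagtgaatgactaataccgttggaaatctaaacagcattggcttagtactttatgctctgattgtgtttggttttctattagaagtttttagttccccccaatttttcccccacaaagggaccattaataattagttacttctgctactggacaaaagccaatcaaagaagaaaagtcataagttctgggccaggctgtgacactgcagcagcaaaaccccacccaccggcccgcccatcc
Tnfrsf9, downstream start, chr4:150927946-150927975: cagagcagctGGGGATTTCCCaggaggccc

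Among the sequences shown, only the one at the downstream start of Tnfrsf9 holds matches. The loose NF-kappaB motif, 3 G, any 5 bases and 2 C, was searched on both strands in windows from 250 bases before to 50 after a start, and 50.8% of 32851 such windows hold it. A 9-letter form, GGGNNTTCC, is held by 5.82% and the AP-1 motif by 7.81% of the windows. GGGNNTTCC has fewer bases between GGG and CC than the loose motif, so a match to it need not match the loose one. The 10 windows of the 8 receptors hold the loose motif in 7, those of Tnfrsf1a, Tnfrsf1b, Tnfrsf14 and Cd27 and both windows of Tnfrsf25 among them. The 9-letter form and the AP-1 motif TGANTCA are held in 1 each, both times at the downstream start of Tnfrsf9. None of these motifs was found in the windows of Tnfrsf4 and Tnfrsf18. A match describes letters and not binding.

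Chd8 itself was listed at 24.7 and 27.6 TPM in WT and at 14.9 and 11.4 TPM in Chd8-/- libraries. TPM is a read count scaled by gene length and library total. Both Chd8-/- values were lower than both WT values, in the direction of the labels (log2 fold change -0.95 with a standard error of 0.29, limma adjusted p = 0.455). The value covers the whole gene and does not separate the floxed exons. Of Treg markers, Foxp3 was listed between 202.8 and 232.1 TPM and Il2ra, the IL-2 receptor alpha chain, between 860.5 and 1156.3 TPM across all libraries, with overlapping genotypes as for Ikzf2. Cd4 and Cd3e, general markers of helper T cells and T cells, were lower without overlap, with log2 fold changes of -0.36 and -0.26 beside the -0.37 of Cd27, and the inhibitory receptor gene Ctla4 was higher without overlap, with 0.51. Markers of other cells were present and uneven. The summed TPM of 8 myeloid genes was 167.6 and 182.9 in WT, 25.7 in Chd8-/- replicate 1 and 1593.1 in Chd8-/- replicate 2, where the lysozyme gene Lyz2 alone was listed at 1360.3 TPM. Cd14, Adgre1, S100a9 and Fcer1g were at 0 in Chd8-/- replicate 1, and S100a8 was at 0 in both WT libraries. The sum of 6 B cell genes was 43.9 and 29.7 in WT and 35.5 and 139.8 in Chd8-/- libraries. The sum of 8 CD8 and NK cell genes lay between 63.2 and 95.8 TPM in all 4 libraries, but its members were uneven. In Chd8-/- replicates 1 and 2 Nkg7 was listed at 82.1 and 15.2 TPM and Cd8b1 at 7.7 and 35.9 TPM. The part of these other cells in the differences below was not tested. In bulk RNA fewer cells of a type and less RNA per cell cannot be told apart.

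Across genes, 0.0% of the 15240 tested passed an adjusted p-value of 0.05 in limma, while 3.9% were higher and 6.3% lower in Chd8-/- Tregs with p under 0.05 before adjustment. The log2 fold changes had a median of -0.15, with 5875 positive and 9365 negative. They reached 1 in 5.12% of genes and -1 in 11.6%, so that 30.6% of these genes were higher in Chd8-/- Tregs, a share of 48.2% after quantile normalization and of 45.9% with equal library medians. With so few libraries the smallest p-value of an exact permutation test is 1 in 3, and no such test could pass 0.05. Each library is 1 mouse.

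The 8 receptors together were listed at 968.6 and 1025.6 TPM in WT and at 1449.1 and 1228.5 TPM in Chd8-/- libraries. Of the 8, 6 had a positive and 2 a negative log2 fold change, where 5875 of all genes were positive and 9365 negative. The median of the 8 was 0.14, against the -0.15 of all genes. Without overlap of the genotypes, 3 receptors were higher in Chd8-/- Tregs, where 14.8% of all genes were, and 2 receptors were lower, where 27.8% of all genes were. The count of lower receptors is near the share over all genes. At an unadjusted p-value under 0.05, 3 receptors were higher and 1 was lower, where 3.9% and 6.3% of all genes were. The log2 fold change reached 1 for 0 receptors and -1 for 1 receptor, Tnfrsf1a, beside 5.12% and 11.6% of all genes. The 8 were chosen with earlier results of these data known, so their counts and median beside all genes are a description and no test.

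**Figure D1:**
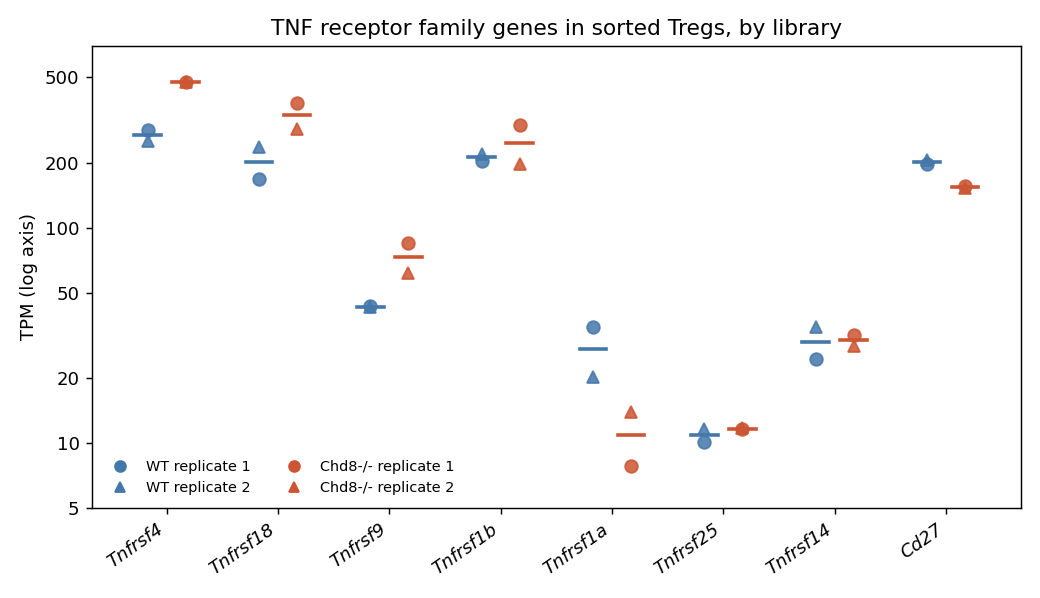
TPM (log axis) of the 8 receptor genes in each library, WT in blue and Chd8-/- in red, with circles for replicate 1, triangles for replicate 2 and a bar at the mean of 2 libraries. Red lies above blue for Tnfrsf4, Tnfrsf18 and Tnfrsf9 and below blue for Tnfrsf1a and Cd27, and the colors overlap for Tnfrsf1b, Tnfrsf25 and Tnfrsf14.

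OX40 (Tnfrsf4), the receptor of Tnfsf4, had the highest level of the 8 in both genotypes. It was listed at 284.0 and 253.4 TPM in WT and at 474.4 and 473.4 TPM in Chd8-/- libraries. The Chd8-/- libraries were nearly equal and well above both WT libraries. This gave a log2 fold change of 0.82 (95% interval 0.39 to 1.25, standard error 0.16, 2 mice per genotype, limma unadjusted p = 0.00536 and adjusted p = 0.403). Leaving out any 1 library gave 0.74 to 0.90. Its first exon overlaps the last exon of Sdf4 on the same strand, and Sdf4 itself was listed at 78.6 and 75.8 TPM in WT and at 95.1 and 88.6 TPM in Chd8-/- libraries.

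GITR (Tnfrsf18), used as a functional marker of Tregs and bound by Tnfsf18, was listed at 169.5 and 236.5 TPM in WT and at 381.9 and 289.4 TPM in Chd8-/- libraries. The genotypes did not overlap, but the libraries within each genotype stood farther apart than for OX40. A log2 fold change of 0.73 was obtained (95% interval 0.02 to 1.43, standard error 0.26, 2 mice per genotype, limma unadjusted p = 0.0452 and adjusted p = 0.481). Without WT replicate 1 it was 0.49, and without WT replicate 2 it was 0.97. An exon of Tnfrsf18 overlaps Gm16008 on the opposite strand, and the counting of the reads is not stated to use strand.

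4-1BB (Tnfrsf9), which activated T cells induce, was listed at 43.2 and 42.8 TPM in WT and at 84.6 and 61.4 TPM in Chd8-/- libraries. Both Chd8-/- libraries were higher than the closely matched WT pair, with a log2 fold change of 0.73 (95% interval 0.06 to 1.41, standard error 0.25, 2 mice per genotype, limma unadjusted p = 0.0392 and adjusted p = 0.472). Without Chd8-/- replicate 1 it was 0.50, and without Chd8-/- replicate 2 it was 0.96.

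TNFR2 (Tnfrsf1b), the receptor that binds membrane TNF best, was listed at 205.4 and 220.5 TPM in WT and at 299.8 and 197.0 TPM in Chd8-/- libraries. The higher value came from Chd8-/- replicate 1 alone, and replicate 2 was below both WT libraries. With both replicates the log2 fold change was 0.19 (95% interval -0.51 to 0.89 over 2 mice per genotype, limma adjusted p = 0.824), and without Chd8-/- replicate 1 it was -0.11. The interval holds changes of more than 1.5-fold upward, so a difference of the size seen for OX40 cannot be told from none here.

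TNFR1 (Tnfrsf1a) was listed at 34.8 and 20.2 TPM in WT and at 7.8 and 13.9 TPM in Chd8-/- libraries. It was lower in both Chd8-/- libraries, with a log2 fold change of -1.27 (95% interval -2.48 to -0.05, standard error 0.45, 2 mice per genotype, limma unadjusted p = 0.0441 and adjusted p = 0.481), the largest in size among the 8. It was -0.89 without Chd8-/- replicate 1 and -1.65 without Chd8-/- replicate 2. Myeloid cells also carry TNFR1. The lowest Tnfrsf1a value was in the library with the lowest myeloid sum, 25.7 TPM, but Chd8-/- replicate 2 with the highest sum, 1593.1 TPM, had less Tnfrsf1a than both WT libraries. The part of myeloid RNA in this difference was not tested.

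CD27 (Cd27), which binds CD70, was listed at 197.0 and 206.1 TPM in WT and at 157.2 and 153.4 TPM in Chd8-/- libraries. The libraries of each genotype lay close together, and Chd8-/- was lower in both, with a log2 fold change of -0.37 (95% interval -0.81 to 0.07, standard error 0.16, 2 mice per genotype, limma unadjusted p = 0.0789 and adjusted p = 0.537). When the medians of the libraries were set equal it was -0.20. Cd27 is read from the minus strand (chromosome 6, 125232620 to 125237136), and its exons overlap the short RNA gene Mir8113. Mir8113 was listed at 711.9 and 1067.1 TPM in WT and at 714.8 and 869.8 TPM in Chd8-/- libraries. The part of reads in the shared stretch in the Cd27 values was not tested.

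DR3 (Tnfrsf25) was the lowest of the 8 in WT, with 10.1 and 11.6 TPM in WT and 11.6 and 11.7 TPM in Chd8-/- libraries. The log2 fold change was 0.10 (95% interval -0.72 to 0.91). HVEM (Tnfrsf14) was listed at 24.6 and 34.5 TPM in WT and at 31.8 and 28.3 TPM in Chd8-/- libraries, with a log2 fold change of 0.04 (95% interval -0.73 to 0.81). For both genes the genotypes overlapped (limma adjusted p = 0.931 and 0.971), and the intervals do not exclude a change of 1.5-fold in either direction.

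**Figure D2:**
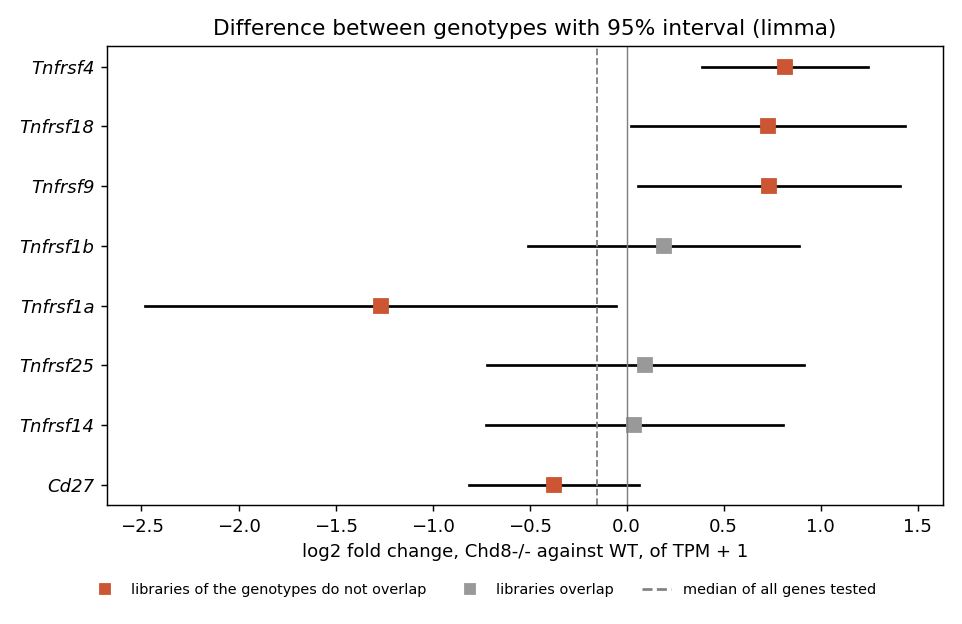
Log2 fold change of TPM + 1 in Chd8-/- against WT Tregs for the 8 receptor genes, with the 95% interval from limma as a line, in red where the libraries of the genotypes do not overlap. The intervals of Tnfrsf4, Tnfrsf18 and Tnfrsf9 lie above 0 and that of Tnfrsf1a below 0, before adjustment, and the dashed line is the median of all genes at -0.15.

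In WT Tregs the order of the levels was Tnfrsf4, then Tnfrsf1b, Tnfrsf18 and Cd27, whose neighbors in this order overlapped between libraries, then Tnfrsf9, Tnfrsf14, Tnfrsf1a and Tnfrsf25, of which Tnfrsf14 and Tnfrsf1a overlapped. In Chd8-/- Tregs Tnfrsf4 again came first, Tnfrsf18 and Tnfrsf1b overlapped, Cd27 and Tnfrsf9 stood apart from their neighbors, and Tnfrsf25 and Tnfrsf1a shared the last place. Tnfrsf4 and Tnfrsf18 made up 46.8% and 47.8% of the summed TPM of the 8 genes in WT and 59.1% and 62.1% in Chd8-/- libraries. The share of Cd27 was 20.3% and 20.1% in WT and 10.8% and 12.5% in Chd8-/- libraries.

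Ratios within a library do not depend on its scaling. The ratio of Tnfrsf4 to Cd27 was 1.44 and 1.23 in WT and 3.02 and 3.09 in Chd8-/- libraries. The ratio of Tnfrsf1b to Tnfrsf1a, the transcripts of both TNF receptors, was 5.9 and 10.9 in WT and 38.4 and 14.2 in Chd8-/- libraries. Against Foxp3, Tnfrsf4 stood at 1.40 and 1.18 in WT and at 2.04 and 2.31 in Chd8-/- libraries. None of these 3 ratios overlapped between the genotypes, and they were chosen after the values were seen. The ratio of Tnfrsf4 to its neighbor Tnfrsf18 overlapped, with 1.68 and 1.07 in WT and 1.24 and 1.64 in Chd8-/- libraries.

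Ligands and binding partners came next. OX40 ligand (Tnfsf4), better known from antigen-presenting cells, was listed at 4.3 and 3.1 TPM in WT and at 35.1 and 52.1 TPM in Chd8-/- libraries. Both Chd8-/- libraries were far above WT, and the part of other cell types, whose markers were uneven between libraries, was not tested. Its log2 fold change was 3.23 (95% interval 2.25 to 4.21 over 2 mice per genotype, limma adjusted p = 0.373), 2.95 to 3.51 without any 1 library, and 2.46 with a pseudocount of 5 TPM. Receptor and ligand of the OX40 pair were both listed higher in Chd8-/- Tregs.

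TL1A (Tnfsf15), the ligand of DR3, was listed at 1.1 and 0.7 TPM in WT and at 7.9 and 2.9 TPM in Chd8-/- libraries, near the low end of the table (log2 fold change 1.64, 95% interval 0.10 to 3.18, limma adjusted p = 0.477). It was 1.05 without Chd8-/- replicate 1 and 0.78 with a pseudocount of 5 TPM. Tnf was listed at 66.7 and 50 TPM in WT and at 35.1 and 16.7 TPM in Chd8-/- libraries, lower in both (log2 fold change -1.22, 95% interval -2.38 to -0.05, limma adjusted p = 0.481), and had -0.70 without Chd8-/- replicate 2. Cd160, a partner of HVEM, was listed at 10.9 and 12.3 TPM in WT and at 6.0 and 3.0 TPM in Chd8-/- libraries (log2 fold change -1.25, 95% interval -2.42 to -0.08, limma adjusted p = 0.477), with -0.82 at a pseudocount of 5 TPM. The genotypes did not overlap for any of these 3 genes. Btla, the other HVEM partner, was listed at 62.9 and 64.1 TPM in WT and at 55.4 and 35.6 TPM in Chd8-/- libraries. The ligands of GITR, 4-1BB and CD27 were low and scattered, with Tnfsf18 up to 4.7, Tnfsf9 up to 10.7 and Cd70 up to 4.4 TPM in any library, and Cd70 was at 0 in WT replicate 2. Of 11 ligands and partners tested, 5 had a positive and 6 a negative log2 fold change, and the median was -0.01. Without overlap 2 lay higher and 3 lower, near the 14.8% and 27.8% of all genes. In limma 0 passed an adjusted p-value of 0.05. Before adjustment 2 were higher and 2 lower at p under 0.05, where 3.9% and 6.3% of all genes were.

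**Figure D3:**
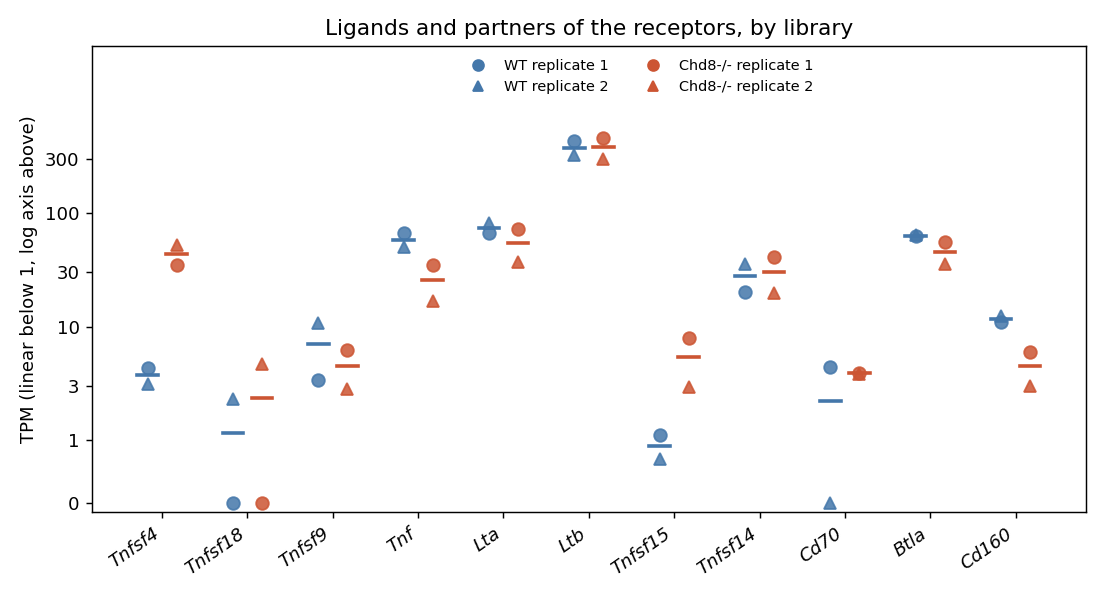
TPM of 11 ligands and partners of the receptors in each library (axis linear below 1 TPM and logarithmic above), WT in blue and Chd8-/- in red, circles for replicate 1 and triangles for replicate 2, with a bar at the mean of 2 libraries. Tnfsf4 is at 4.3 TPM or less in WT and at 35.1 TPM or more in Chd8-/- libraries, and Tnf and Cd160 are lower in both Chd8-/- libraries.

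Of 20 other receptors of the superfamily, 13 passed the filter on low values, with a median log2 fold change of -0.16. CD30 (Tnfrsf8), which is found on activated lymphocytes and whose gene is the neighbor of Tnfrsf1b, was listed at 7.9 and 20.8 TPM in WT and at 30.7 and 75.8 TPM in Chd8-/- libraries. It was higher in both Chd8-/- libraries (log2 fold change 1.82, 95% interval 0.04 to 3.61 over 2 mice per genotype, limma adjusted p = 0.484), with 1.18 without WT replicate 1 and 1.19 without Chd8-/- replicate 2. TACI (Tnfrsf13b), a receptor of BAFF and APRIL, was listed at 51.3 and 55.6 TPM in WT and at 40.0 and 22.1 TPM in Chd8-/- libraries. Tnfrsf21, Relt, Ltbr and Tnfrsf23 were listed at 11.1 TPM or less with overlapping genotypes. Of the 13, 5 had a positive and 8 a negative log2 fold change, and 0 had an adjusted p-value under 0.05 in limma. Without overlap of the genotypes 2 were higher and 2 lower, where 14.8% and 27.8% of all genes were. Before adjustment 1, Tnfrsf8, was higher at p under 0.05, where 3.9% of all genes were.

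Adaptors and ubiquitin ligases carry the signal from the receptors. Of 19 tested, 10 had a positive and 9 a negative log2 fold change, the median was 0.00, and the range was -0.81 to 0.74. Without overlap of the genotypes 4 were higher and 4 lower, where 14.8% and 27.8% of all genes were. Traf5, an adaptor of OX40, GITR and CD27, was listed at 89.5 and 74.7 TPM in WT and at 63.9 and 33.5 TPM in Chd8-/- libraries, and Traf2, which most of these receptors share, at 15.4 and 17.7 TPM and at 9.9 and 9.6 TPM. Both adaptors were lower in both Chd8-/- libraries. Sharpin and Rnf31, subunits of the linear ubiquitin ligase, were listed higher in both, Rnf31 at 29.6 and 29.4 TPM in WT and 38.3 and 44.7 TPM in Chd8-/- libraries, and Sharpin at 27.4 and 17.9 TPM in WT and 35.2 and 40.3 TPM in Chd8-/- libraries. Rbck1, the other subunit, was lower in both, at 26.8 and 27.4 TPM in WT and 23.0 and 19.1 TPM in Chd8-/- libraries, as was Otulin, which removes linear ubiquitin chains, with a log2 fold change of -0.41. Tradd had -0.77 with overlapping genotypes, at 13.6 and 33.1 TPM in WT and 20.4 and 7.0 TPM in Chd8-/- libraries, and Birc2, a ubiquitin ligase, had 0.47 without overlap. The limma adjusted p was 0.524 or more for all of these genes.

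In the NF-kappaB pathway 8 of 17 genes had a positive and 9 a negative log2 fold change, with a median of 0.00. Without overlap of the genotypes 4 were higher and 3 lower, where 14.8% and 27.8% of all genes were. Map3k14, the kinase NIK of the noncanonical branch, was listed at 33.2 and 51.7 TPM in WT and at 18.4 and 8.0 TPM in Chd8-/- libraries, lower in both (log2 fold change -1.68, 95% interval -3.02 to -0.35 over 2 mice per genotype, limma adjusted p = 0.450). The inhibitor Nfkbib was listed at 23.0 and 26.2 TPM in WT and at 39.0 and 56.6 TPM in Chd8-/- libraries, and Bcl3, a nuclear member of the inhibitor family, at 36.9 and 40.9 TPM and at 76.5 and 55.7 TPM. Both were higher in both Chd8-/- libraries. Nfkbia, the most abundant inhibitor gene of the list, was lower in both, at 184.0 and 224.0 TPM in WT and at 150.0 and 167.2 TPM in Chd8-/- libraries (log2 fold change -0.36), as was the kinase gene Ikbkb (-0.46), and Tnfaip3, an inhibitor of the pathway, was higher in both (0.41). The subunit genes Nfkb1, Nfkb2, Rela, Relb and Rel had log2 fold changes between -0.19 and 0.13. In limma 0 genes of the adaptor and NF-kappaB lists passed an adjusted p-value of 0.05. Before adjustment p was under 0.05 for 0 adaptors and, in the NF-kappaB list, for 2 genes higher and 1 lower. Over all genes, 3.9% were higher and 6.3% lower at that p-value.

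**Figure D4:**
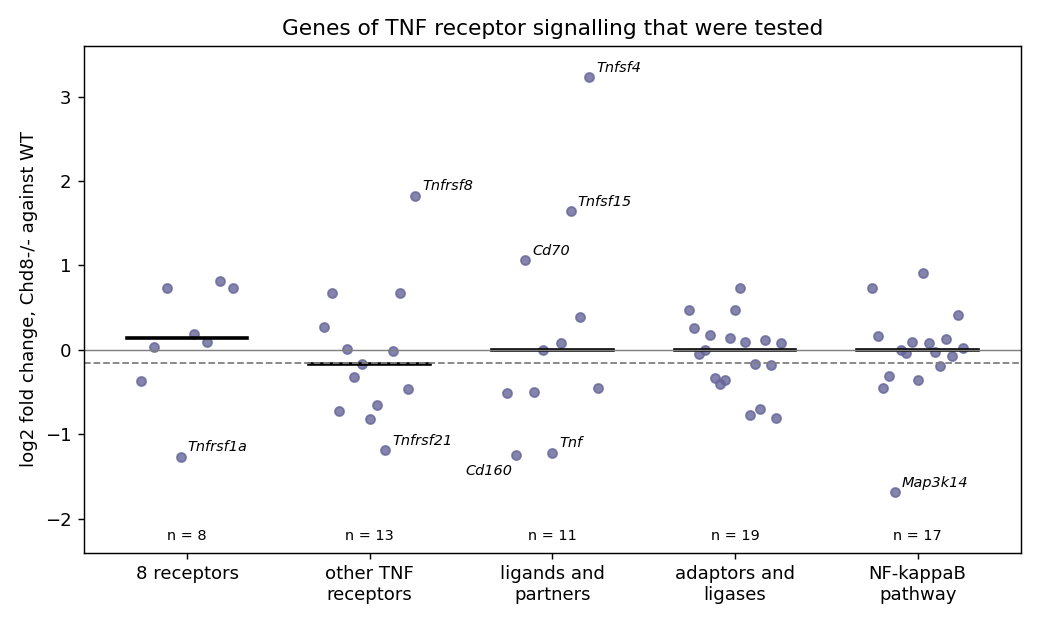
Log2 fold change in Chd8-/- against WT Tregs for each tested gene of 5 lists, the 8 receptors, other TNF receptors, ligands and partners, adaptors and ligases, and the NF-kappaB pathway, with a bar at the median of the list, a dashed line at the median of all genes and names for genes past a log2 fold change of 1 in either direction. Tnfsf4 at 3.23 is the highest point and Map3k14 at -1.68 the lowest.

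Genes near the receptors were read from the same fit. Within 50 kb of Tnfrsf4 and Tnfrsf18 the gene Sdf4 had a log2 fold change of 0.25 and did not overlap between genotypes, B3galt6 had -1.05 with overlapping libraries, and Ttll10, listed at 2.2 TPM or less, had -0.72. Gm42365, listed at 6.2 TPM or less, had 0.46 with overlapping libraries. Next to Tnfrsf1b, Tnfrsf8 was higher while Vps13d had a log2 fold change of -0.51. E130112N10Rik, which spans Cd27 on the opposite strand and shares no exon bases with it, was listed at 35.9 and 35.9 TPM in WT and at 17.2 and 17.0 TPM in Chd8-/- libraries. Its log2 fold change was -1.03 (unadjusted p = 0.0106 from limma), and it was named after the values were seen. Of 9 tested genes within 50 kb of Cd27, 3 including this one were lower and 0 higher without overlap. The others overlapped, among them Mir8113 in a Cd27 exon, with -0.14, and Tapbpl, with 0.32. Over 20 tested genes within 50 kb of a receptor, the receptors left out, 3 were higher and 5 lower without overlap, near the 14.8% and 27.8% of all genes, and their median was -0.20.

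**Figure D5:**
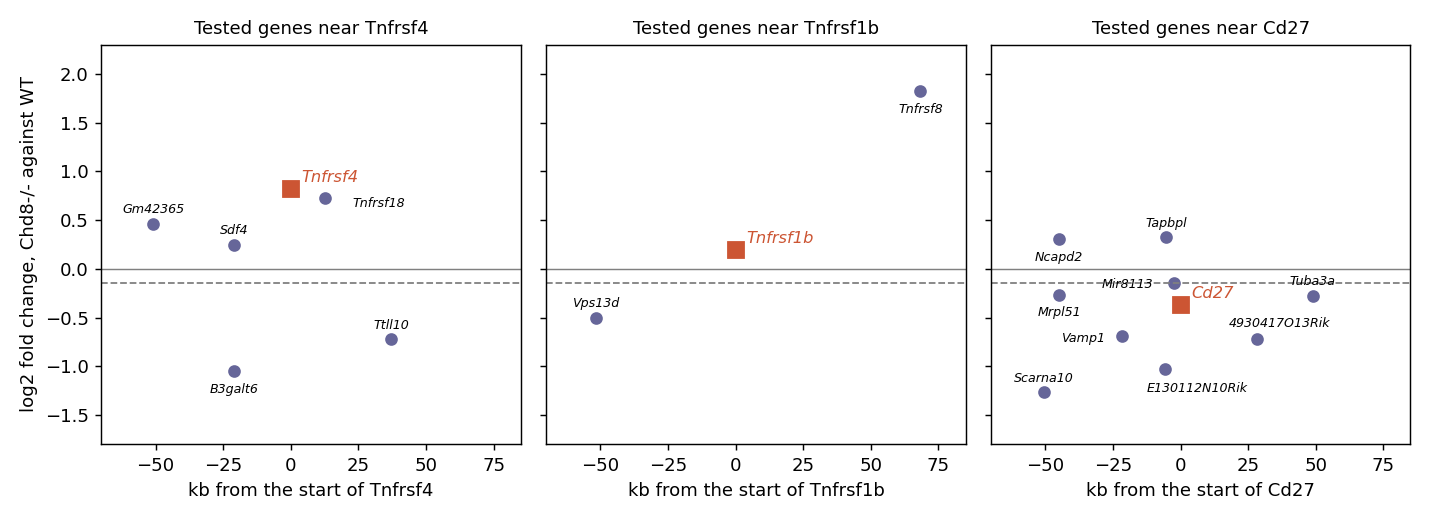
Log2 fold change of tested genes against the distance in kb between their start and that of Tnfrsf4, Tnfrsf1b or Cd27 (red squares), with the dashed line at the median of all genes. Tnfrsf4 and Tnfrsf18 lie together near 0.8, Tnfrsf8 stands at 1.82 beside Tnfrsf1b at 0.19, and genes near Cd27 scatter between -1.27 and 0.32.

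For a description of shared patterns, the tested gene at the smallest Euclidean distance over the 4 centered log2(TPM + 1) values was named for each receptor. This was Rnf19a for Tnfrsf4 (distance 0.065), listed at 67.7 and 60.3 TPM in WT and at 118.9 and 118.6 TPM in Chd8-/- libraries. For Tnfrsf18 it was 4833417C18Rik (0.087), for Tnfrsf9 Gm2237 (0.051), for Tnfrsf1a Mir7031 (0.162), for Tnfrsf1b Eif5a (0.031), for Tnfrsf25 Tes (0.018), for Tnfrsf14 Mlec (0.017) and for Cd27 Akap9 (0.019). Among the receptors themselves, Tnfrsf9 was nearest to both Tnfrsf4 (0.349) and Tnfrsf18 (0.350). With only 4 values and 15240 genes to choose from, close matches arise readily, and a link between these genes was not tested.

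Other genes that separate resting from effector Tregs were read beside the receptors. Of 8 genes of resting Tregs, 0 passed an adjusted p-value of 0.05 in limma. Before adjustment 4, all lower, had p under 0.05, where 6.3% of all genes were lower. Of the 8, 7 had a negative log2 fold change, as had 9365 of the 15240 genes tested. The median of the 8 was -0.57, against -0.15 over all genes. S1pr1, a receptor for egress from lymphoid organs, was listed at 356.3 and 401.4 TPM in WT and at 225.9 and 177.7 TPM in Chd8-/- libraries. Satb1 went the other way, with 23.6 and 24.2 TPM in WT and 28.6 and 43.8 TPM in Chd8-/- libraries. Ccr7 and Bcl2 overlapped between the genotypes, with log2 fold changes of -0.17 and -0.01. Without overlap 1 of the 8 was higher and 5 were lower, where 14.8% and 27.8% of all genes were. Of 12 genes of effector Tregs, 8 had a positive and 4 a negative log2 fold change, with a median of 0.56. Over all genes, 5875 were positive and 9365 negative. Of the 12, 0 passed an adjusted p-value of 0.05 in limma. Before adjustment 6 were higher and 2 lower at p under 0.05, where 3.9% and 6.3% of all genes were. Icos, a costimulatory receptor, was listed at 110.0 and 110.3 TPM in WT and at 254.0 and 212.5 TPM in Chd8-/- libraries, and Tigit at 177.6 and 161.7 TPM and at 333.6 and 249.7 TPM. Both lay above WT in both libraries, as did Tnfrsf4, Tnfrsf18 and Tnfrsf9. Members of the list differed in both directions. Gzmb, a cytotoxic protease, was listed at 35.6 and 27.6 TPM in WT and at 11.7 and 3.1 TPM in Chd8-/- libraries, and Klrg1 at 101.5 and 82.0 TPM and at 42.4 and 53.5 TPM.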

How the data were processed

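RNA-seq was carried out on sorted YFP+ splenic Tregs of 2 WT and 2 Chd8-/- mice, 1 library per mouse. The authors trimmed reads with Trim Galore 0.4.2 and cutadapt 1.9.1, aligned them to mm10 with STAR 2.6.1e, removed duplicates, counted reads on RefSeq genes with featureCounts 1.6.2 and deposited TPM rounded to 0.1. The methods name both a droplet tag assay and a standard Illumina RNA-seq kit, so the scaling by gene length may not suit the reads. TPM keeps no depth, which is unknown, and no counting interval is given.

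Of 35869 entries, 4 under repeated names were left out. A gene was tested if 2 or more libraries listed it at 1 TPM or higher. Values were compared as log2(TPM + 1) by limma (version 3.58.1, R version 4.3.3), using moderated two-sided tests with an intensity trend and Benjamini-Hochberg adjustment over all tested genes. Fold changes on this scale understate the change of low genes. The code was tested on simulated data. Tables and figures used Python 3.11.15, pandas 2.3.3 and matplotlib 3.10.9. Gene positions, promoters and neighbors within 50 kb came from RefSeq on GRCm38.p6, the build of the RNA table. Exons were searched for overlaps with other genes, and promoter windows that lie in exons are shown only in part or not at all. All 8 receptors matched by symbol.

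The 8 receptors and all lists were chosen with earlier results of these data known. The lists were other TNF receptors, ligands and partners, adaptors and ligases, NF-kappaB genes, Treg markers, resting and effector Tregs, B cells, myeloid cells, and CD8 and NK cells. They were described without a set test. Named genes were all receptors, Chd8, up to 3 genes per direction with the largest difference in each pathway list, listed markers, and the nearest gene in pattern. Tnfsf9, Tnfsf18, Rbck1, Otulin, the NF-kappaB subunits and the examples of resting and effector Tregs were chosen after values were seen. The genes near the receptors, the ratios, the 9-letter NF-kappaB motif and the AP-1 motif were also chosen after values were seen. ATAC-seq and CHIP-seq tables are on mm39 and were not used here, since the annotation is on GRCm38. The ATAC alternatives were therefore not run.

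The alternatives were pseudocounts of 0.1 and 5 TPM, no filter, a filter on mean TPM (5 or higher), quantile normalization, equal medians, eBayes without trend, a replicate block and leaving out each library.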

Additional observations from a re-analysis of the deposited data

How the results depend on the processing

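Each of the 8 receptors kept its adjusted p-value above 0.05 in all settings tried, between 0.208 and 1.0. Tnfrsf4, Tnfrsf18, Tnfrsf9, Tnfrsf25, Tnfrsf1a and Cd27 kept their direction in all of them. Tnfrsf1b was reversed to -0.11 without Chd8-/- replicate 1, and Tnfrsf14 to -0.04 without that library and to -0.20 without WT replicate 1. Over the libraries left out in turn, Tnfrsf1b lay between -0.11 and 0.49, Tnfrsf14 between -0.20 and 0.28, and the number of receptors lower in Chd8-/- Tregs between 2 and 4. Genes past an adjusted p-value of 0.05 numbered 0 as reported, 2 with a mean TPM of at least 5 and 415 without a filter, of which 8 were among the 15240 genes otherwise tested. Genes past a log2 fold change of 1 numbered 781 upward and 1768 downward, 362 and 690 with 5 TPM added, 541 and 1149 with a mean TPM of at least 5, and between 989 and 1370 upward and between 1447 and 3107 downward with a library left out. The NF-kappaB median was 0.13 after quantile normalization, 0.18 with equal medians, and between -0.18 and 0.12 with a library left out. Quantile normalization and equal medians moved the median of all genes from -0.15 to 0.00 and 0.03, and fold changes in the text are not corrected for it. The replicate block left the number of genes called at 0, with a smallest adjusted p-value of 0.552. The numbers were not taken to pair the mice, since the deviations of same-numbered libraries correlated at -0.012 over genes. Without a library 1 genotype has a single mouse, whose spread is assumed to be that of the other genotype. The ATAC alternatives were not run.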

Other observations

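Some TNF receptors carry apoptotic signals and are known targets of p53. Fas, the death receptor CD95, was listed at 44.5 and 54.5 TPM in WT and at 59.9 and 59.6 TPM in Chd8-/- libraries, higher in both (log2 fold change 0.27, 95% interval -0.32 to 0.87, limma adjusted p = 0.706). Tnfrsf10b, the mouse TRAIL receptor, was listed at 17.5 and 10.3 TPM in WT and at 16.2 and 11.3 TPM in Chd8-/- libraries, with overlapping genotypes. The genotypes also overlapped for Casp8, the initiator caspase, at 137.6 and 151.3 TPM in WT and at 140.5 and 139.5 TPM in Chd8-/- libraries. These genes were chosen after the values were seen.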
